A study of Mus musculus with 11 samples.

Results

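Slc26a3, Aqp8, Slc37a2, Cyp2c55, Ces1g, Fabp2, Krt20 and Guca2a are 8 genes of mature absorptive cells of the colon. They were named by symbol as a measure of colonocyte RNA, with the carbonic anhydrases kept apart, and all 8 were among the 49997 genes listed in both tables. The libraries were made from L cells and enterochromaffin (EC) cells, sorts of hormone-secreting cell of the colon that release peptide hormones and serotonin. All donors were ovariectomised C57BL/6 female mice aged 10 to 14 weeks. L cells came from Cck-Cre;R26LSL-tdTomato mice 4 hours after estradiol benzoate (EB), a long-acting ester of estradiol, or after sesame oil, the vehicle, with about 7000 cells for each treatment, 3 EB libraries and 2 vehicle libraries. EC cells came from ECFLTG mice given EB or sesame oil, with at least 500 cells a sample, 4 EB libraries and 2 vehicle libraries, and no time after treatment is given for them. In the first line Cre under control of Cck, itself a hormone gene, switches on a red reporter that stays on in the cell and its progeny, and the labels do not expand the name ECFLTG. Whether replicates within a group are different mice is not stated, and the p-values below therefore reflect differences among libraries that may be technical.

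Absorptive colonocytes are the most common cells of the colon surface and take up salt, water and short-chain fatty acids. Slc26a3 exchanges luminal chloride for bicarbonate, Aqp8 is a water channel, and Slc37a2 is a sugar-phosphate transporter of the endoplasmic reticulum. Cyp2c55 is a cytochrome P450 that oxidises lipids and drugs, Ces1g is a carboxylesterase that splits lipid esters, and Fabp2 carries fatty acids inside the cell. Krt20 is a keratin of differentiated gut epithelium that goblet cells also make, and Guca2a encodes guanylin, a secreted peptide that acts on guanylate cyclase C and so on salt and water transport.

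The 300-base promoters of 4 of the genes are shown because the results turn on them. Fabp2 had the largest difference between EB and vehicle in L cells. Cyp2c55 and Guca2a lay nearest the mean of the other genes in EC cells, and Krt20 departed from it. Each runs 5′ to 3′ on the gene's strand from 250 bases before the start of transcription to 50 bases after it, from RefSeq on GRCm38.p6. Capitals mark matches on either strand to the letters TATAAA of a TATA box. They also mark TTTATNG, a motif bound by the intestinal CDX factors. The other marked motifs are CAAAGTNCA, bound by the nuclear receptor HNF4, and AGATAA, bound by GATA factors. In Krt20, and in Ces1g, the matches to the first pair share bases.
Fabp2 (chr3:122894822-122895121, + strand): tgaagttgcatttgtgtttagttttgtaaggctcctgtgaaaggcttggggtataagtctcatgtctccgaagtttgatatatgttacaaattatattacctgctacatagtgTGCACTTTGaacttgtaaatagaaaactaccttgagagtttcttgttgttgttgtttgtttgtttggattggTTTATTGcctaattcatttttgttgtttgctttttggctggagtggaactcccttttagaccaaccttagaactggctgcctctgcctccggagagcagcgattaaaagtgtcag
Cyp2c55 (chr19:39006769-39007068, + strand): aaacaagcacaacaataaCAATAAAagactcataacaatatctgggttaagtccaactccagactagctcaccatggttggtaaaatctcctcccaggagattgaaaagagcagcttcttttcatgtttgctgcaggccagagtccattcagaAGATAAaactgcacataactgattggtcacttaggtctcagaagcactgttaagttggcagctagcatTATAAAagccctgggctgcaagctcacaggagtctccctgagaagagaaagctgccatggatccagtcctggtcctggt
Guca2a (chr4:119637482-119637781, + strand): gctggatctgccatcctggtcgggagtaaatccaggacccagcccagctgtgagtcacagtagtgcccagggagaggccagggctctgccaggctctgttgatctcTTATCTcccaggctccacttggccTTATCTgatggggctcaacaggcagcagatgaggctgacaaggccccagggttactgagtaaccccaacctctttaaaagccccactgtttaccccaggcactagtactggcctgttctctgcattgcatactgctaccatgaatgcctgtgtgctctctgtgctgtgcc
Krt20 (chr11:99438104-99438403, − strand): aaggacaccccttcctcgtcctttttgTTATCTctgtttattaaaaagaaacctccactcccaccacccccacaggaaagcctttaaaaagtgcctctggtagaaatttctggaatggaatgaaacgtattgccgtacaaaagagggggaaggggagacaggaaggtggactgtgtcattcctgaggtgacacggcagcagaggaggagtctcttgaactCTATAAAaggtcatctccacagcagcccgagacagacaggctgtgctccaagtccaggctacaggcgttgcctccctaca

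All 8 genes had a promoter of this kind in the table, and the same letters were counted in all 32851 promoters of that length. TATAAA was found in 4 of the 8 and in 13.6% of all promoters. TTTATNG was found in 5 of the 8, against 10.9% of all, AGATAA in 4 of the 8, against 11.2%, and CAAAGTNCA in Fabp2 alone, against 1.41%. An estrogen response element, spelled as GGTCA and then TGACC after a gap of 3 bases, was in 0 of the 8 windows and in 0.07% of all. These matches describe the letters of each window and are not measured binding sites.

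The labels were set against marker genes before the results. Libraries held 27658579 to 31449447 gene reads in L cells and 4955808 to 10640921 in EC cells. In L cells 7 hormone genes (Pyy, Gcg, Insl5, Cck, Nts, Sct and Ppy) took 0.0659%, 0.196% and 0.318% of gene reads in the EB libraries, against 0.0486% and 0.0179% in the vehicle libraries. The 8 colonocyte genes took 2.05% to 2.17% in the EB libraries and 2.65% to 2.89% in the vehicle libraries, more than the hormones in each of the 5. The same hormones took 0.128%, 0.204%, 1.04% and 0.242% in the EB libraries of EC cells and 0.255% and 1.86% in vehicle, so all 6 EC-cell libraries were above both vehicle libraries of L cells, and 2 of them above every L-cell library, which goes against the labels. In EC cells 8 markers took 0.814%, 1.11%, 4.75% and 12.4% in EB replicates 1 to 4, against 7.40% and 8.86% in vehicle. Most of these reads fell on the granin genes Chga and Chgb, which were also read in every L-cell library. In EB replicate 4 they measured 169459 and 449642 normalised counts, against 37566 for Tph1, the enzyme that starts serotonin synthesis. By the share of these 8 markers EB replicates 1 and 2 stood apart from the other 4 EC-cell libraries. The fold changes and list counts of EC cells and the summed share of the 8 colonocyte genes are also given without EB replicates 1 and 2. Reads of a library may thus include those of other cells, and in bulk RNA fewer cells of a type and less RNA per cell cannot be told apart.

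In L cells, 7 of the 8 genes had lower mean normalised counts after EB than after vehicle, where 50.3% of all genes tested were lower and 49.7% higher, and Slc37a2 was the exception. The fatty acid carrier Fabp2 and the esterase Ces1g differed most, with EB means of 0.490 and 0.547 times the vehicle means. In 5 genes (Cyp2c55, Ces1g, Fabp2, Krt20 and Guca2a) every EB library lay below both vehicle libraries, where 14% of all genes tested did so. None of the 8 passed limma's threshold of an adjusted p (Benjamini-Hochberg) under 0.05, which 0.0247% of 16217 genes did.

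**Figure D1:**
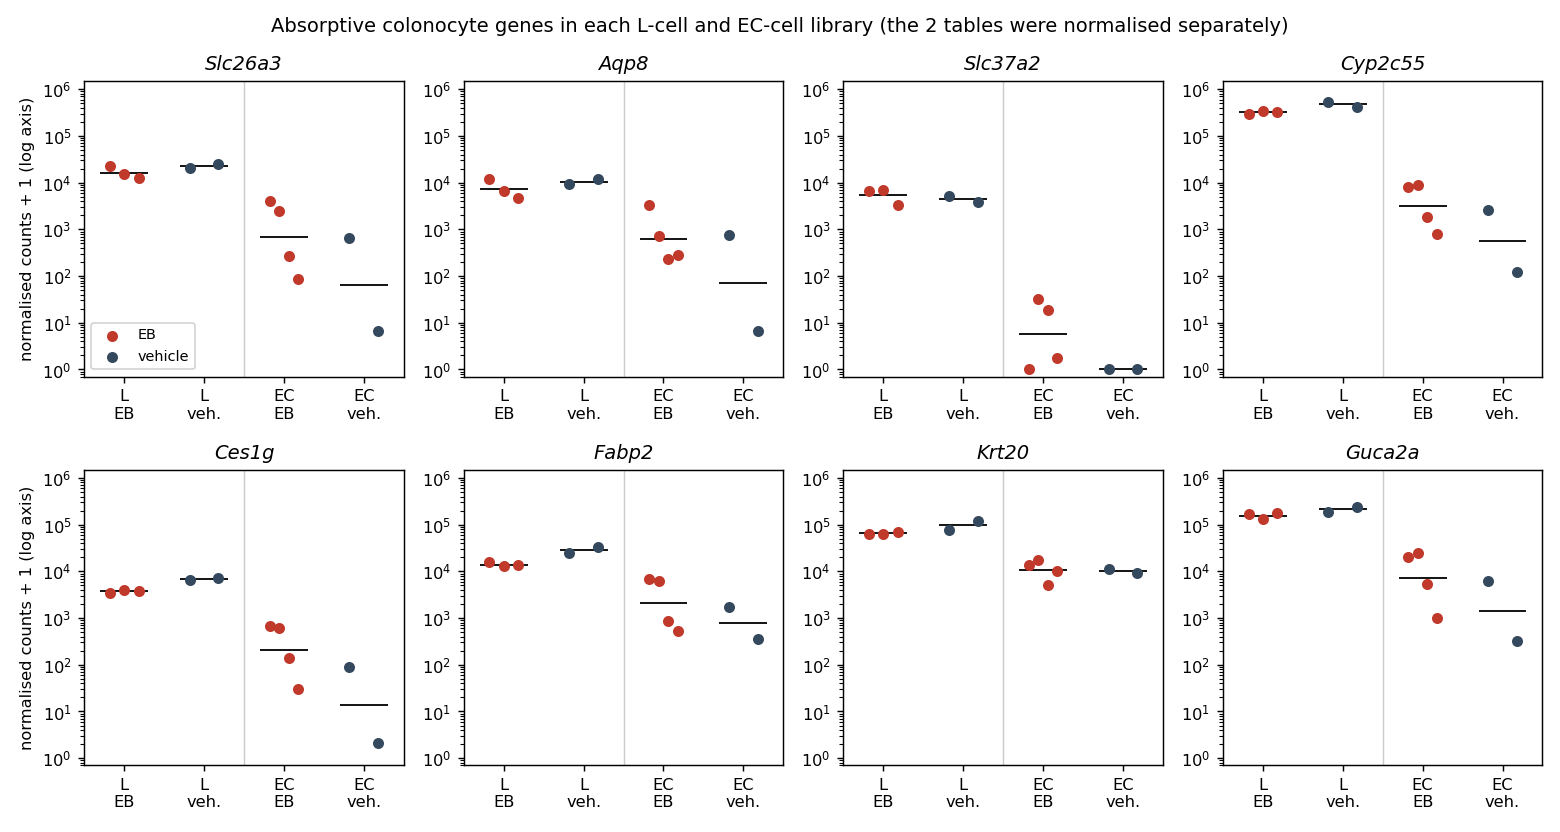
Normalised counts + 1 (log axis) of the 8 colonocyte genes in each library, with EB in red, vehicle in dark blue and a line at the mean taken on the log scale. In L cells Fabp2 lies at 13069 to 15638 in EB and 24284 to 33000 in vehicle, and Aqp8 at 4705 to 11846 in EB and 9394 to 11888 in vehicle, while EC-cell values of Slc26a3 run from 86.4 to 4066 in EB and from 5.51 to 664 in vehicle, and the tables were normalised separately.

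Among the transport genes of L cells, Slc26a3 (chromosome 12, 31433142 to 31473922 in mm10) measured 22745, 15411 and 12591 normalised counts in EB replicates 1 to 3, against 20633 and 25152 in vehicle. EB replicate 1 was as high as the vehicle libraries, so the groups overlapped, and the log2 fold change was -0.47 ± 0.24 (SE). Aqp8 (chromosome 7, 123462294 to 123468003) measured 11846, 6665 and 4705 in EB, against 9394 and 11888 in vehicle. The same EB library was again among the vehicle values, and the log2 fold change was -0.56 ± 0.34. Slc37a2 (chromosome 9, 37229149 to 37255738) measured 6620, 6921 and 3296 in EB, against 5177 and 3936 in vehicle. Here EB replicates 1 and 2 were above both vehicle libraries and EB replicate 3 was below them, with a log2 fold change of 0.24 ± 0.31. Its exons share 241 bases with Gm48081 on the opposite strand, and reads of the pair cannot be told apart without strand.

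The genes of lipid and drug metabolism were separated between the treatments in L cells. Fabp2 (chromosome 3, 122895072 to 122899506) measured 15638, 13069 and 13434 normalised counts in EB, against 24284 and 33000 in vehicle, or 14047 ± 1390.2 (SD, n = 3) against 28642 ± 6163 (SD, n = 2). The lowest vehicle library was far above the highest EB library. Its log2 fold change was -1.02 ± 0.17, with an adjusted p of 0.118 in limma, 0.156 in edgeR and 2.45e-05 in DESeq2. Ces1g (chromosome 8, 93302369 to 93337209) measured 3431, 3994 and 3798 in EB, against 6478 and 7193 in vehicle. It had the smallest limma p of the 8 genes, rank 31 of all genes tested, a log2 fold change of -0.87 ± 0.13 and adjusted p values of 0.102 in limma, 0.146 in edgeR and 5.14e-06 in DESeq2. Cyp2c55 (chromosome 19, 39006940 to 39042690) had the most reads of the 8, not scaled for length, with 296392, 345091 and 331982 in EB, against 538942 and 426007 in vehicle. The groups did not overlap, and its log2 fold change was -0.57 ± 0.20, with an adjusted p of 0.343 in limma, 0.285 in edgeR and 0.0292 in DESeq2.

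The keratin and the guanylin gene were also lower in each EB library of L cells. Krt20 (chromosome 11, 99428385 to 99438153) measured 63708, 61874 and 71373 normalised counts in EB, against 77685 and 119214 in vehicle. Its EB libraries agreed to within a ratio of 1.15, the vehicle libraries differed by a ratio of 1.53, and the log2 fold change was -0.55 ± 0.20. Guca2a (chromosome 4, 119637732 to 119639465) measured 166607, 132061 and 173701 in EB, against 188643 and 242033 in vehicle. The gap between the groups was narrow, and the log2 fold change was -0.45 ± 0.20. Neither passed in limma, with adjusted p values of 0.362 for Krt20 and 0.443 for Guca2a.

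The median log2 fold change of the 8 genes in L cells was -0.56, beside -0.0022 for all genes tested. An unadjusted limma p under 0.05 was reached by 4 of the 8, where 11.6% of all genes did so. Of the other tools, edgeR called 0 of the 8 and 0 of all genes, and DESeq2 called 3 of the 8, all lower, where 3.22% of all genes were called. The calls of Fabp2, Ces1g and Cyp2c55 therefore depended on the tool, and limma with no filter on low values called Fabp2 and Ces1g. Without vehicle replicate 1, limma gave Fabp2 a log2 fold change of -1.24 and an adjusted p of 0.0321, in a fit that assumes the lone vehicle library to vary like the others. Other lists differed between the same libraries. The 3 carbonic anhydrases together took 3.40% to 4.00% of reads in EB libraries and 4.81% to 6.27% in vehicle libraries, a sum made up mostly of Car1. Car4 alone was higher in each EB library, at 29518 to 39091 normalised counts, against 26583 and 27327 in vehicle, and Car2 stood at -0.10 ± 0.21 in log2. Car1 measured 949358, 1060760 and 890764 normalised counts in EB, against 1800750 and 1500130 in vehicle. Its log2 fold change was -0.77 ± 0.24, with an adjusted p of 0.286 in limma and 0.000353 in DESeq2. On the log2 scale 1 of the 3 was higher in EB, but 2 on shares of gene reads, so the list had no common direction. Quantile normalisation counted 3 as higher, Car1 included. It sets a value by its rank in the library, so no sign is drawn from it for a gene as abundant as Car1. For 9 goblet cell markers the shares were 1.20% to 2.49% in EB and 0.599% to 1.21% in vehicle, and for 9 stem and cycling markers 0.0131% to 0.0152% in EB and 0.00628% to 0.00776% in vehicle. Like the stem and cycling list, the hormone list was higher in each EB library than in either vehicle library. The goblet list was not, as EB replicate 1 lay just below vehicle replicate 2. The part of these lists in the difference was not tested.

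**Figure D2:**
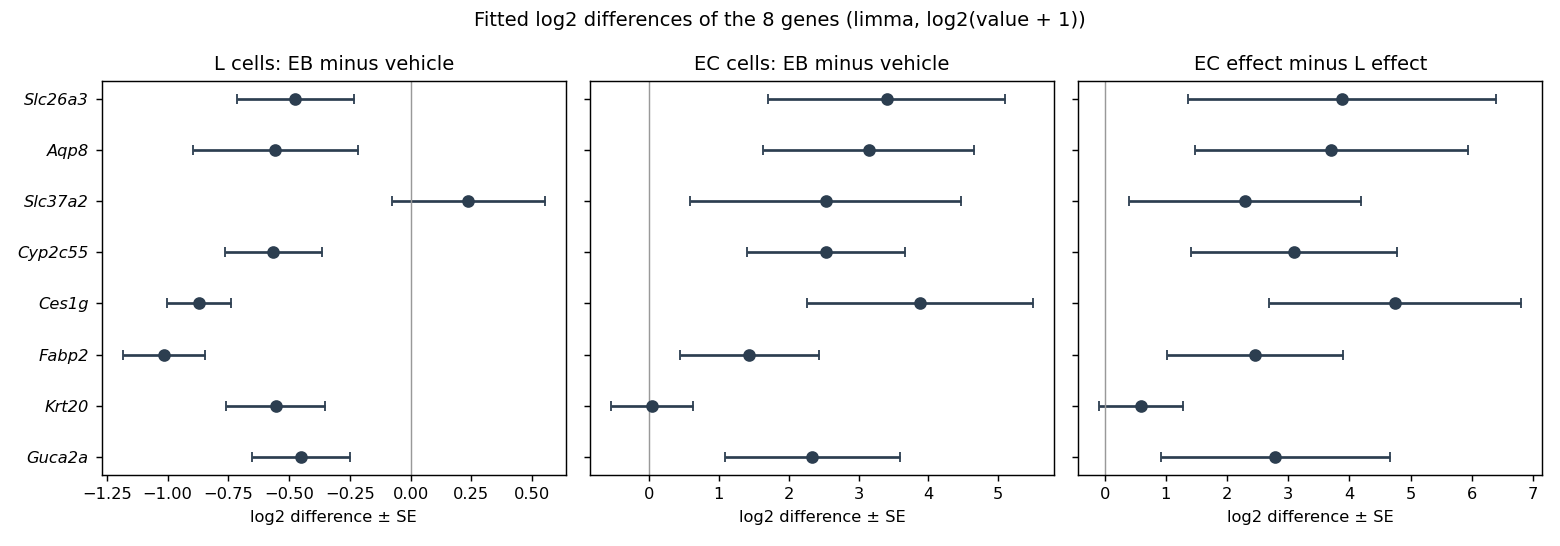
Log2 differences ± SE (limma, log2(value + 1)) of the 8 genes, as EB minus vehicle in L cells, EB minus vehicle in EC cells, and the EC-cell difference minus the L-cell difference, each panel with its own scale. L-cell values run from -1.02 for Fabp2 to 0.24 for Slc37a2, while EC-cell values have much wider errors, with Krt20 at 0.044, below 0 on shares of gene reads and after quantile normalisation, and Slc37a2 kept there only through EB replicates 2 and 3.

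In EC cells the same genes ran the other way on average but with no separation of the treatments. Leaving aside Slc37a2, whose direction was set by the filter, fitted log2 fold changes were above 0 for 7 of 7 genes, but Krt20 was below 0 on shares of gene reads and after quantile normalisation. Of all genes tested 47.5% were above 0 and 52.5% below. The EB and vehicle values overlapped in 8 of 8, where 4.98% of all genes had every EB library above both vehicle libraries and 6.3% below. EB replicates 1 and 2 held the highest values of most of the genes and vehicle replicate 2 the lowest. None was called by limma, edgeR or DESeq2, which called 0, 0 and 15 of 15287 genes, 0.0981% for DESeq2, and 2 of the 8 (Ces1g and Cyp2c55) had an unadjusted limma p under 0.05, where 3.55% of all genes did.

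Slc26a3 measured 4066, 2454, 268 and 86.4 normalised counts in EB replicates 1 to 4, against 664 and 5.51 in vehicle. The EB libraries differed among themselves by a ratio of 47.1 and the vehicle libraries by 120, so the log2 fold change of 3.40 ± 1.69 had an adjusted p of 0.905 in limma. Aqp8 measured 3327, 713, 228 and 279 in EB, against 762 and 5.51 in vehicle, with a log2 fold change of 3.15 ± 1.51. Vehicle replicate 1 lay above 3 of the 4 EB libraries, and leaving out vehicle replicate 2 turned the value to -0.29. Slc37a2 was close to absent, with 0, 24, 21 and 1 reads in EB and 0 and 0 in vehicle. It passed the filter on low values only through EB replicates 2 and 3, so its direction is set by the filter and no fold is drawn from it.

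For the metabolic genes, Cyp2c55 measured 7932, 9122, 1851 and 783 normalised counts in EC-cell EB libraries, against 2553 and 119 in vehicle. Ces1g measured 668, 612, 139 and 28.8 in EB, against 89.8 and 1.10 in vehicle. Fabp2 measured 6855, 6217, 852 and 539 in EB, against 1702 and 353 in vehicle. In all 3 genes EB replicates 1 and 2 were the highest libraries, vehicle replicate 1 was above EB replicate 4, and vehicle replicate 2 was the lowest. Their log2 fold changes were 2.53 ± 1.13 for Cyp2c55, 3.88 ± 1.62 for Ces1g and 1.44 ± 0.99 for Fabp2, each with an adjusted p of 0.905 in limma. Vehicle replicate 2 held 1 read of Ces1g, and 5 reads each of Slc26a3 and Aqp8. The sizes of the log2 fold changes of Ces1g, Slc26a3 and Aqp8 therefore rest on few reads.

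Guca2a followed the same order, with 20155, 25275, 5264 and 992 normalised counts in EB, against 6327 and 319 in vehicle, and a log2 fold change of 2.34 ± 1.25. Krt20 did not, with 13825, 17793, 5106 and 10073 in EB, against 11440 and 9253 in vehicle. Its lowest library was EB replicate 3 rather than vehicle replicate 2, and its range over the 6 libraries was 1.80 log2 units, against 9.29 for Slc26a3 and 6.31 for Guca2a. The log2 fold change of Krt20 was 0.044 ± 0.58, with an adjusted p of 0.995 in limma, and its sign changed under 6 of 17 alternatives.

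Leaving out EB replicates 1 and 2, a choice made after seeing the data, brought the EC-cell log2 fold changes to 1.22 for Slc26a3, 1.85 for Aqp8, 1.12 for Cyp2c55, 2.23 for Ces1g and 0.68 for Guca2a. Fabp2 and Krt20 then stood at -0.19 and -0.52, below 0, and Slc37a2 no longer passed the filter. Leaving out vehicle replicate 2 brought Slc26a3 to 0.06, Cyp2c55 to 0.33, Ces1g to 1.16, Fabp2 to 0.31 and Guca2a to 0.18. The sizes of the EC-cell values therefore depended on these 3 libraries. Tph1 was lowest in the libraries where the colonocyte genes were highest, with 4984, 5708, 29230 and 37566 normalised counts in EB, against 34469 and 46423 in vehicle. EB replicates 1 and 2 thus had both the largest colonocyte share and the smallest EC-cell marker share of the 6 libraries, and the part of this in the EB difference was not tested. The median log2 fold change of the 7 genes other than Slc37a2 was 2.53 in EC cells, beside -0.07 for all genes tested, and 1.12 without EB replicates 1 and 2, beside 0.03.

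**Figure D3:**
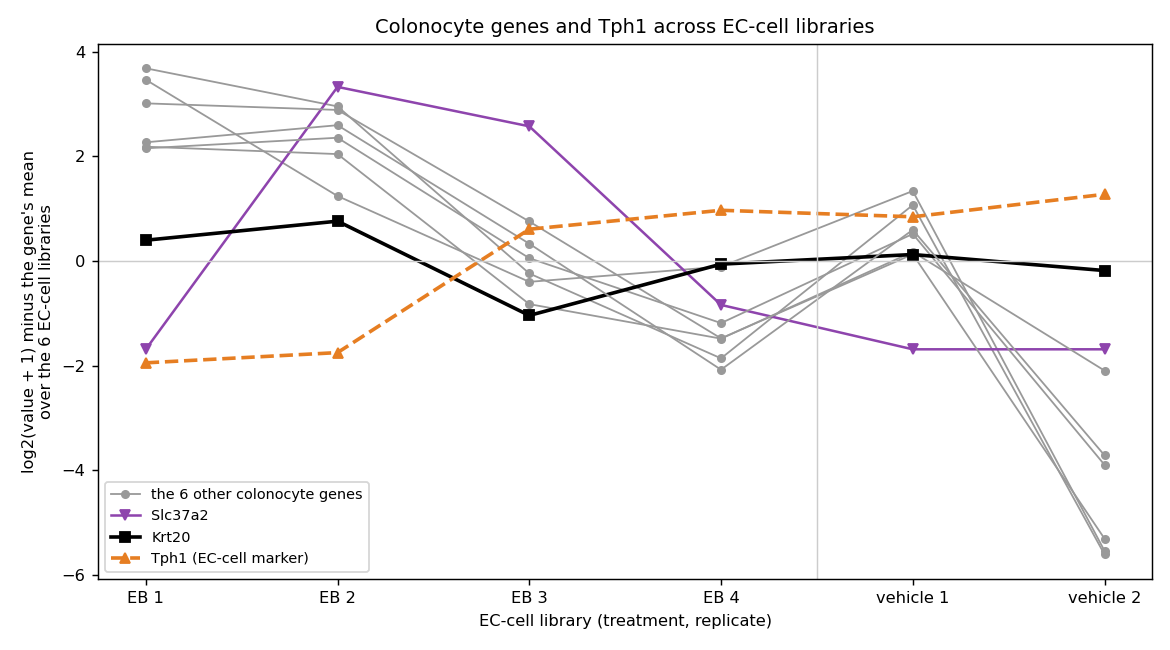
Log2(value + 1) of each gene minus its mean over the 6 EC-cell libraries, by library, for 6 colonocyte genes (grey), Slc37a2 (purple), Krt20 (black) and the EC-cell marker Tph1 (dashed orange). The 6 grey genes are above their mean in EB replicates 1 and 2 and lowest in vehicle replicate 2, Tph1 is lowest in EB replicates 1 and 2, and Krt20 stays within a range of 1.80 log2 units.

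The difference between cell types was tested in limma as the EC-cell fold change minus the L-cell fold change. The fit gave a gene the same variance in both cell types, although the separate SE of Ces1g was 0.13 in L cells and 1.62 in EC cells. Leaving aside Slc37a2, whose EC-cell direction was set by the filter, the difference was above 0 for 7 of 7 genes. It ran from 0.60 ± 0.69 for Krt20 to 4.75 ± 2.06 for Ces1g on the log2 scale. The Ces1g value rests in part on 1 read in EC-cell vehicle replicate 2, and it was 2.03 without that library. No gene passed, with adjusted p values of 0.862 for 7 genes and 0.878 for Krt20 in limma. Across the 13802 genes tested limma and edgeR called 0 and DESeq2 called 32 (0.232%), none of them among the 8, and 4.56% had an unadjusted limma p under 0.05. Without EC-cell EB replicates 1 and 2 the difference ran from 0.03 for Krt20 and 0.82 for Fabp2 to 3.10 for Ces1g, with Slc37a2 not tested. The fold changes in L cells and EC cells were therefore not shown to differ beyond the spread of the libraries in this fit, which assumes that shared variance.

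As a share of all gene reads, the 8 genes together made 2.11%, 2.05% and 2.17% in the EB libraries of L cells, against 2.89% and 2.65% in vehicle. The mean share was 2.11 ± 0.0599% (SD, n = 3) in EB and 2.77 ± 0.170% (SD, n = 2) in vehicle, a ratio of 0.762. That ratio stayed between 0.730 and 0.797 whichever library was left out and was 0.784 without Cyp2c55. In EC cells the shares were 0.724%, 0.849%, 0.251% and 0.235% in EB, against 0.478% and 0.184% in vehicle, a ratio of means of 1.56. It was 0.734 without EB replicates 1 and 2, on the other side of 1. The 95% Wilson intervals of these shares were no wider than 0.00758 percentage points on either side and cover counting error only, so depth did not limit them.

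The genes made up this share differently in the libraries of each cell type. Cyp2c55 supplied 49.1% to 61.9% of the reads on the 8 genes in L-cell libraries and 1.18% to 14.7% in EC-cell libraries. Krt20 supplied 8.92% to 13.7% in L-cell libraries. In EC cells it supplied 24.3%, 28.6%, 37.2% and 78.8% in EB, against 48.6% and 92.0% in vehicle. The summed share was thus mostly Krt20 in EB replicate 4 and vehicle replicate 2, but not in EB replicate 3, where it was about as small.

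**Figure D4:**
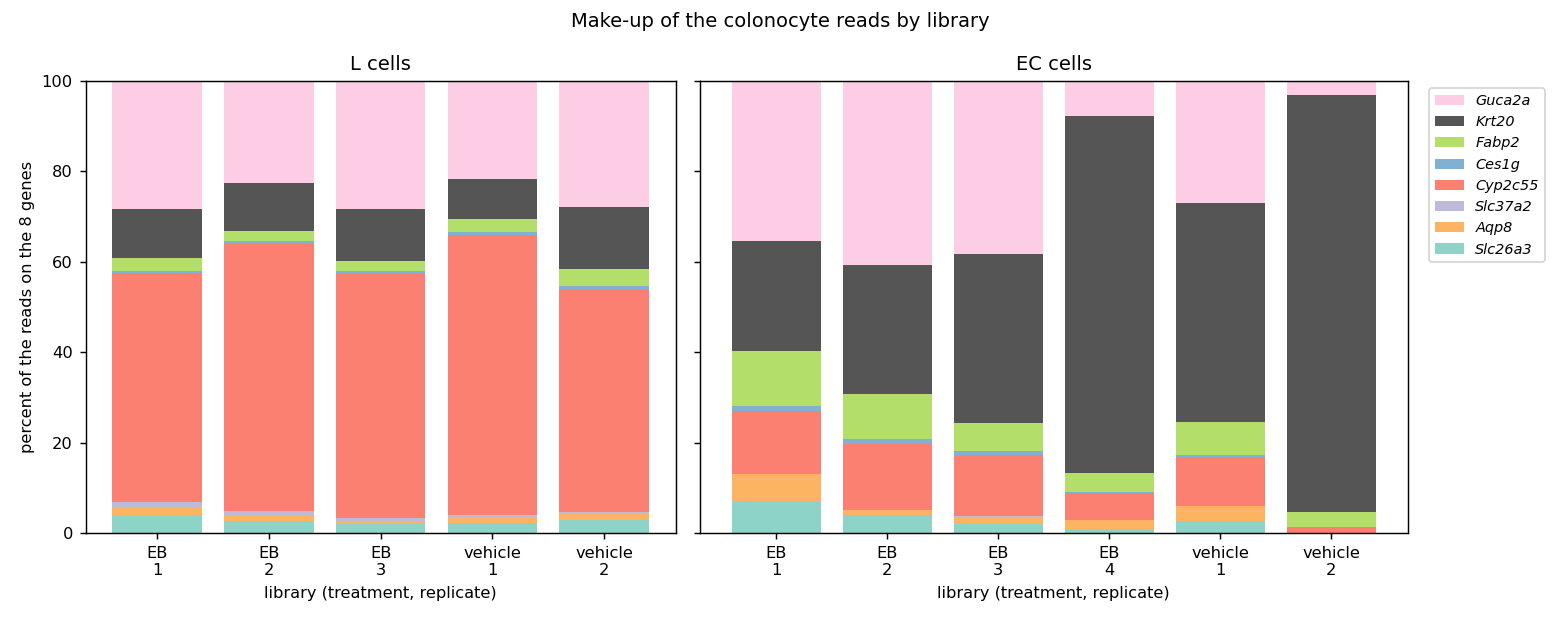
Percent of the reads on the 8 genes that fell on each gene, stacked to 100 for every L-cell library (left) and EC-cell library (right), with EB left of vehicle. Cyp2c55 is the largest part of each L-cell library, at 49.1% to 61.9%, and Krt20 reaches 78.8% in EC-cell EB replicate 4 and 92.0% in vehicle replicate 2.

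Ratios taken within a library do not depend on its normalisation. Cyp2c55 had 1.76 to 2.86 times the normalised counts of Guca2a, not per length, in L-cell libraries and 0.352 to 0.790 times in EC-cell libraries, ranges that did not meet. Krt20 had 0.382 to 0.493 times the counts of Guca2a in L-cell libraries, a spread of 1.29-fold, and 0.686 to 29.0 times in EC-cell libraries, a spread of 42.3-fold. Slc37a2 had 0 to 24 reads in EC-cell libraries, so no fold between cell types is drawn for it. The share of gene reads averaged 23.9-fold higher in L-cell than in EC-cell libraries for Cyp2c55, 4.59-fold for Ces1g and 4.29-fold for Guca2a. It averaged 3.71-fold higher for Slc26a3, 2.34-fold for Aqp8, 1.66-fold for Fabp2 and 1.44-fold for Krt20. Slc37a2, Cyp2c55, Ces1g and Guca2a were lower in all 6 EC-cell libraries than in any L-cell library. Slc26a3 and Aqp8 were lower in 5 of the 6, and Krt20 and Fabp2 in 4 of the 6. How many of all genes were lower in every EC-cell library was not counted, so this is not read as a trait of these genes. Cell type, mouse line and table go together here and cannot be told apart.

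Per length of transcript, as the usual RPKM computed from the recovered reads and the summed exon length, Guca2a was the highest of the 8 in every group. It averaged 9411 ± 1396 (SD, n = 3) in EB and 11496 ± 1343 (SD, n = 2) in vehicle libraries of L cells. Cyp2c55, Krt20, Fabp2, Aqp8, Slc26a3, Ces1g and Slc37a2 followed in that order in both treatments. Neighbours in the order had ranges apart, except Aqp8 and Slc26a3 in EB libraries. In EC cells the order was Guca2a, Krt20, Fabp2, Cyp2c55, Aqp8, Slc26a3, Ces1g and Slc37a2 in both treatments. There neighbours overlapped in EB libraries except Ces1g and Slc37a2, and in vehicle libraries except that pair and the pair Krt20 and Fabp2. Cyp2c55 stood higher in the order of L cells than in that of EC cells, and Slc37a2, lowest in both, averaged 30.0 ± 10.8 (SD, n = 3) in EB and 22.0 ± 5.50 (SD, n = 2) in vehicle libraries of L cells.

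How far each gene kept to the others was measured as the root mean square distance of its centred log2 profile to the mean of the other 7. In EC cells it was 0.245 log2 units for Cyp2c55 and 0.527 for Guca2a, the genes nearest the common profile. It was 0.832 for Fabp2, 1.07 for Ces1g, 1.42 for Slc26a3, 1.48 for Aqp8, 1.99 for Krt20 and 2.44 for Slc37a2. The 6 genes other than Krt20 and Slc37a2 were each lowest in vehicle replicate 2 and highest in EB replicate 1 or 2. How many of all genes tested had this order was not counted, so it is not read as particular to them. In L cells, where the genes ranged over 0.863 to 1.34 log2 units and distances are therefore not on a par with those in EC cells, they ran from 0.192 for Slc26a3 to 0.362 for Aqp8, with Slc37a2 at 0.585. In EC cells 6 of the 8 thus shared the order given above, while Krt20 and the nearly absent Slc37a2 departed from it.

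The genes whose profiles over all 11 libraries lay nearest to the mean of the 8 were sought among 9626 genes kept in both tables with a mean of at least 50 in each. The nearest were Maoa (distance 0.182 log2 units), which encodes a monoamine oxidase, Lypd8 (0.224), a surface protein that holds bacteria off the colon epithelium, and Abcb1a (0.279), a drug efflux pump. Il4ra (0.287), a cytokine receptor chain, Cda (0.288), a cytidine deaminase, and Fam110c (0.294) came next, beside a median of 1.58 over the candidates. Maoa ranged from 56.2 to 3938 normalised counts in EC cells and from 34405 to 55947 in L cells. Its log2 fold change was 2.64 in EC cells, or 1.41 without EB replicates 1 and 2, and -0.49 in L cells. Maoa was chosen by its profile over these same libraries, so these values follow from the choice and are no separate evidence. Of the carbonic anhydrases Car1 was 0.379 away (rank 20), Car4 0.590 and Car2 1.04, and Car1 had log2 fold changes of 3.18 ± 1.09 in EC cells, or 1.68 without those libraries, and -0.77 ± 0.24 in L cells.

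Other colonocyte genes were read from 4 lists. Of 13 transport genes 9 were lower and 4 higher in the EB libraries of L cells, with a median of -0.16, which was -0.0014 on shares of gene reads and 0.04 after quantile normalisation, so no direction held there. In EC cells every gene of the list other than Atp12a was higher in EB libraries under each of these scalings. The median of the 13 was 2.29, with Atp12a included. Atp12a measured 181, 5.21, 29.4 and 0 normalised counts in EB, against 1.39 and 0 in vehicle. It passed the filter only through EB replicates 1 and 3, so its direction is set by the filter. The list took 0.176% and 0.153% of reads in EB replicates 1 and 2 and 0.0625% and 0.0610% in EB replicates 3 and 4, against 0.0803% and 0.0134% in vehicle. Without EB replicates 1 and 2, 11 of the 12 that passed were higher, with a median of 1.23. The most abundant of them in L cells was Slc6a14, an amino acid transporter, at -0.05 ± 0.21, followed by the sodium-proton exchanger Slc9a2 at -0.16 ± 0.12 and the sulfate transporter Slc26a2 at -0.08 ± 0.16. In EC cells Slc26a2 stood at 2.29 ± 0.90, Slc6a14 at 1.56 ± 0.66 and the fatty acid transporter Slc5a8 at 1.27 ± 0.57. Without EB replicates 1 and 2 they stood at 1.41, 1.15 and 1.32. Of these 13 genes 4, Atp12a not among them, had every EB value of EC cells above both vehicle values, where 4.98% of all genes did.

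Of 14 genes of lipid, ketone and drug metabolism, 11 were lower in the EB libraries of L cells, with a median of -0.30, and 12 of the 13 that passed the filter were higher in those of EC cells, with a median of 1.45. The L-cell count was 9 on shares of gene reads and 10 after quantile normalisation, and the EC-cell count was 11 on shares of gene reads. Without EB replicates 1 and 2 it was 8 of 13, with a median of 0.39. Abcb1a stood at -0.20 ± 0.17 in L cells. Cyp2d34, a cytochrome P450, stood at 2.89 ± 1.06 in EC cells, or 1.44 without EB replicates 1 and 2. Adh1, an alcohol dehydrogenase, ran against its list in both cell types. It measured 35021, 38614 and 28189 in EB, against 9237 and 13398 in vehicle libraries of L cells. Its log2 fold change there was 1.60 ± 0.20 with an adjusted p of 0.0749 in limma. In EC cells Adh1 stood at -1.06 ± 0.60, or -0.57 without EB replicates 1 and 2.

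Of 15 brush border and surface genes 14 were lower in the EB libraries of L cells, with a median of -0.30, and 15 of 15 were higher in those of EC cells, with a median of 1.39. Shares of gene reads gave 13 and 14, and without EB replicates 1 and 2 the EC-cell count was 11 of 15, with a median of 0.23. The adhesion molecule Ceacam1 stood at -0.23 ± 0.20 in L cells and 1.08 ± 0.73 in EC cells. Lypd8 stood at -0.28 ± 0.24 and 2.69 ± 1.06, and the galactose-binding lectin Lgals3 at -0.33 ± 0.16 and 2.04 ± 0.95. Without EB replicates 1 and 2 the EC-cell values were 0.23 for Ceacam1, 1.27 for Lypd8 and 0.49 for Lgals3. Of 12 regulators of differentiation 9 were lower in EB libraries of L cells, with a median of -0.10, but 4 were lower on shares of gene reads and after quantile normalisation, with medians of 0.06 and 0.08. The 11 that passed in EC cells divided into 6 higher and 5 lower, with a median of 0.12, and 4 higher and 7 lower on shares of gene reads. Without EB replicates 1 and 2 there were 3 higher and 8 lower, with a median of -0.34. The vitamin D receptor gene Vdr stood at -0.05 ± 0.15 in L cells and 0.12 ± 0.65 in EC cells, and Hnf4a, a nuclear receptor gene of the gut lining, at -0.13 ± 0.15 and -0.01 ± 0.46. The homeobox gene Cdx1 stood at -0.07 ± 0.16 in L cells and Klf4, a zinc finger regulator, at 1.65 ± 0.81 in EC cells. Without EB replicates 1 and 2 the EC-cell values were -0.88 for Vdr, -0.26 for Hnf4a and 0.35 for Klf4. Neither limma nor edgeR called any gene of the 4 lists in either cell type, and DESeq2 called 8 in L cells, 7 lower and Adh1 higher, and 0 in EC cells. Over all genes DESeq2 called 3.22% in L cells and 0.0981% in EC cells, while 50.3% of all genes were lower in L cells and 47.5% higher in EC cells.

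**Figure D5:**
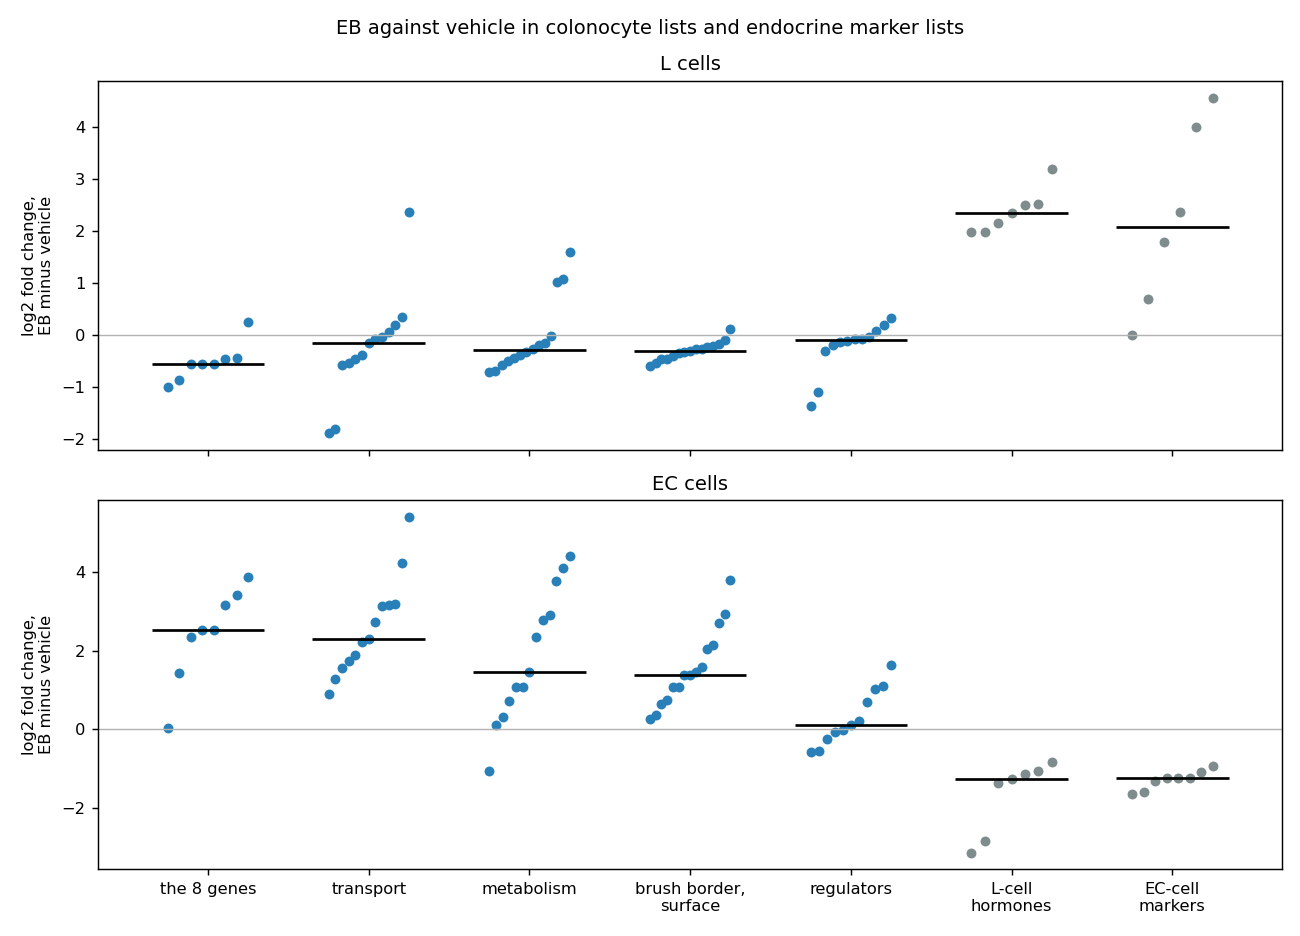
Log2 fold change, EB minus vehicle, of each gene that passed the filter in the 8 colonocyte genes, 4 lists of other colonocyte genes (blue) and the lists of L-cell hormones and EC-cell markers (grey), in L cells (top) and EC cells (bottom), with a bar at the median. The 8 genes have a median of -0.56 at the top and 2.53 at the bottom. The latter is also 2.53 without Slc37a2, whose EC-cell direction was set by the filter, and 1.12 without EC-cell EB replicates 1 and 2. The hormones have a median of 2.35 in L cells and -1.27 in EC cells, or -0.39 without EC-cell EB replicates 1 and 2, and the EC-cell markers 2.08 in L cells and -1.23 in EC cells, or -0.05 without them.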

How the data were processed

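RNA of isolated colon cells was made into full-length cDNA and tagmentation libraries, per the labels' protocols. Per the submitters' processing notes the tools were STAR, featureCounts and DESeq2 (no versions) on mm10. The authors deposited normalised counts, a signal value for each gene in each library, and normalised L cells and EC cells separately. Every value was a whole multiple of a step per library (tolerance 0.001), so whole reads were recovered for edgeR, DESeq2 and shares of reads. The deposited size factors were 0.892 to 1.11 in L cells and 0.712 to 2.16 in EC cells.

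The filter asked for 10 or more normalised counts in at least 2 libraries, which left 16217 genes (L cells) and 15287 (EC cells). Differences were tested with limma 3.58.1 under R 4.3.3 on log2(value + 1) with a mean-variance trend and Benjamini-Hochberg adjustment over all kept genes. Fold changes on that scale understate low genes. The method was tested on simulated data. Alternatives were edgeR 4.0.16, DESeq2 1.42.0, other scalings, pseudocounts and filters, a replicate block and each library left out. EC-cell EB replicates 1 and 2 were left out together after seeing the data. Members and lists were chosen with earlier results of these data known. The text names all 8 genes, the 3 most abundant genes of each other colonocyte list, the 6 genes with the nearest profile, the carbonic anhydrases and close paralogs that passed the filter. An item that this rule named is not reported here. Gene positions and promoters come from RefSeq, and exon lengths and overlaps from GENCODE annotation of mm10. Strand use in counting is not given in the sources used here.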

Additional observations from a re-analysis of the deposited data

Results flagged for a closer look

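Aqp8 in the EB libraries of EC cells was marked because EB replicate 1 lay far from the rest of its group. It measured 3327 normalised counts there, against 713, 279 and 228 in EB replicates 2, 4 and 3, and the gap to the nearest library was 0.844 of the whole range, above Dixon's 95% critical value for 4 samples. Chance marks about 1 in 20 groups, and 9 values were checked in this group, so a single mark among them is not rare. Slc26a3, Cyp2c55, Ces1g, Fabp2 and Guca2a were high in both EB replicates 1 and 2, and no such mark arose for them.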

How the results depend on the processing

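In L cells the direction of each of the 8 genes was kept under all 15 alternatives, with Fabp2 between -1.24 and -0.79, Ces1g between -0.95 and -0.71 and Slc37a2 between 0.04 and 0.58. Fabp2 and Ces1g passed limma with no filter (adjusted p = 0.0107 and 0.0198) and in DESeq2, as did Cyp2c55 in DESeq2 alone, and Fabp2 passed without vehicle replicate 1. The number of genes called in L cells was 4 in the main test, 27 on shares of gene reads, 14 after quantile normalisation, 139 with no filter, 0 in edgeR and 522 in DESeq2. With a library left out it ran from 0 (any EB library) to 92 (vehicle replicate 1), with 53 without vehicle replicate 2. In EC cells it was 0, but 15 in DESeq2, and 0 to 1 with a library left out. For the difference between cell types it was 0, but 32 in DESeq2, and 0 to 270 with a library left out, the highest without EC-cell vehicle replicate 1.

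In EC cells Krt20 reversed to -0.27 on shares of gene reads, -0.39 after quantile normalisation and -0.52 without EB replicates 1 and 2. With 1 library left out it ran from -0.21 to 0.40, below 0 without EB replicate 1 (-0.08), EB replicate 2 (-0.21) or vehicle replicate 2 (-0.11). Aqp8 ran from -0.29 (without vehicle replicate 2) to 6.58 and Fabp2 reversed to -0.19 without EB replicates 1 and 2. Slc26a3, Cyp2c55, Ces1g and Guca2a stayed above 0 in EC cells under the alternatives run. So did the difference between cell types for each of the 7 genes other than Slc37a2, whose EC-cell direction was set by the filter. The ratio of summed shares in EC cells ran from 1.08 to 2.80 with a library left out and was 0.734 without EB replicates 1 and 2. The cause of these changes was not tested. Shares of gene reads moved the median of all genes by 0.15 in L cells, -0.29 in EC cells and -0.44 in their difference. Relative to the median on that scale, -0.36, Krt20 stood at 0.09 in EC cells.

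The labels do not pair same-numbered libraries, and those shared only 2 numbers per table. Their deviations correlated at 0.157 and 0.148 in L cells and 0.036 and 0.007 in EC cells. With the replicate number as a block limma called 56 genes in L cells, 24 in EC cells and 0 for the difference. A fit without a vehicle library rests on a lone one, and the 2 to 4 libraries of a group limit each test.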

Other observations

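Close relatives of the 8 genes were read beside them, since reads on near-identical stretches could be split between copies by the counting. Of these 18 genes 4 (Cyp2c65, Ces1f, Guca2b and Fabp1) also stand in the colonocyte lists. In L cells, 14 of 18 passed the filter, 9 lower and 5 higher in EB libraries, and limma called 0. Among the cytochrome P450 genes near Cyp2c55, Cyp2c65 had a log2 fold change of -0.50 ± 0.15 and Cyp2c66 of -0.98 ± 0.32, while Cyp2c68 stood at 1.43 ± 0.29, with 4212, 2375 and 2079 normalised counts in EB, against 1102 and 950 in vehicle. Cyp2c68 therefore ran opposite to Cyp2c55, with each EB library above both vehicle libraries, and was called by DESeq2 but not by limma (adjusted p = 0.183). Among the esterases near Ces1g, Ces1f stood at -0.71 ± 0.16, Ces1d at -0.62 ± 0.14, Ces1e at -0.22 ± 0.17 and Ces1c, a low gene, at 2.54 ± 0.94. Guca2b, the uroguanylin gene beside Guca2a, stood at -0.30 ± 0.22 and the keratin gene Krt19 at -0.38 ± 0.24.

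The relatives of the transport and fatty acid genes showed no common direction in L cells. Slc37a1 stood at 0.09 ± 0.15, Aqp1 at -0.09 ± 0.37 and Fabp1 at 1.01 ± 1.66. Fabp6 measured 178, 386 and 355 normalised counts in EB, against 282 and 7561 in vehicle, so that a single vehicle library set its value of -2.33 ± 1.14. Slc26a4, which encodes an anion exchanger related to Slc26a3, measured 17.1, 34.4 and 47.0 in EB, against 1.06 and 0 in vehicle. It passed the filter only through EB libraries, so its direction, counted above as higher, is set by the filter. In EC cells 11 of the 18 passed, 7 higher and 4 lower, and limma called 0. Of those 7, Ces1e and Fabp6 passed the filter only through EB libraries. Their direction is therefore set by the filter and no fold is drawn from them. Without EB replicates 1 and 2, 9 passed, 2 higher and 7 lower. With all EC-cell libraries Ces1f stood at 4.39 ± 1.74, Guca2b at 1.46 ± 0.78, Cyp2c65 at 0.73 ± 1.53 and Krt19 at 0.80 ± 0.71. Slc37a1 stood at 0.44 ± 0.56, Ces1d at -0.68 ± 0.92, Aqp1 at -0.62 ± 0.84, Cyp2c68 at -3.02 ± 2.12 and Slc26a4 at -3.48 ± 1.89. Without EB replicates 1 and 2 these genes stood, in the same order, at 2.89, 1.01, -1.61, -0.06, -0.12, -1.33, -0.40, -1.48 and -1.17.

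Markers of other cells took the following shares. Stromal markers took 0.000428% to 0.000687% of reads in the EB libraries of L cells and 0.00119% and 0.0271% in the vehicle libraries. Immune markers took 0.00164% to 0.00641% in EB and 0.00231% to 0.00243% in vehicle libraries of L cells. In EC cells the immune list took 0.106% to 0.254% in EB and 0.129% to 0.171% in vehicle, nearly all of it Cd74, a gene of antigen presentation, at 5742 to 18364 normalised counts in EB and 6730 to 8247 in vehicle. The leukocyte marker Ptprc measured at most 15.6 in EB, against 41.7 and 7.72 in vehicle. Stromal markers took 0.000823% to 0.00398% in EB and 0.00387% to 0.00662% in vehicle, with Dcn and Lum at 0 in both vehicle libraries. Tuft cell markers took at most 0.00266% of reads in any group, with Pou2f3 and Il25 at 0 in the EC-cell vehicle libraries. Goblet cell markers took 0.0430% to 0.784% in EB and 0.134% to 1.37% in vehicle libraries of EC cells, and stem and cycling markers 0.0137% to 0.0433% in EB and 0.0427% to 0.0509% in vehicle.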
